A study of Mus musculus with 9 samples.

Results

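YAP and TAZ, the transcription factors of the TEAD family and a pair of their target genes were examined for PBRM1 and BRG1 occupancy in smooth muscle cells of the mouse oviduct. The 8 genes were *Yap1* (YAP), *Wwtr1* (TAZ), *Tead1*, *Tead2*, *Tead3*, *Tead4*, *Ankrd1* and *Amotl2*, taken as a list from the 21755 protein-coding genes on the autosomes and X. For each gene all peaks in the annotated gene body plus 20 kb on each side were collected, and peaks with a summit no more than 2 kb from an annotated start of that gene were counted as promoter peaks. All other summits were distal, unless another gene started within that distance.

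All libraries came from primary oviductal smooth muscle cells of wild-type mice aged 8 to 12 weeks, mated with a stud male and used on day 2 of pregnancy, with 50000 cells per library. The labels name no deletion and no agent in either group, and the groups differed in the antibody. One group of 3 replicates was made with an antibody against PBRM1 (BAF180) and the other group of 3 with an antibody against BRG1. The assay was ChIC-Seq, in which micrococcal nuclease fused to protein A is brought to the antibody and cuts the DNA around it. The labels also describe 3 control IgG samples, which were not analysed here, and they do not say whether replicates came from separate mice. The p-values below therefore measure only the spread between these libraries, which may be technical.

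YAP and TAZ are coactivators that do not bind DNA themselves and reach their target genes through TEAD proteins. The kinases of the Hippo pathway phosphorylate YAP and TAZ and keep them out of the nucleus, whereas stretch and a stiff matrix favour their nuclear entry, for which the pathway is well known in muscle and other contractile cells. *Ankrd1*, encoding a stretch-responsive ankyrin repeat protein of muscle, and *Amotl2*, encoding an angiomotin that binds YAP and restrains it, are widely used target genes. BRG1 is an ATPase that drives SWI/SNF chromatin remodeling complexes, and PBRM1 is a subunit found in the PBAF form of these complexes.

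The stretches of sequence on which most of the results turn are printed first, from GRCm38.p6 and 5′ to 3′ in the direction of the gene. Each lay in a region with a peak in all 6 replicate lists, within 300 bases centred on the median summit, and bases in untranslated or noncoding exons were left out except for the short site in *Amotl2*. Capitals mark GGAATG or its reverse complement CATTCC (the core of the sequence bound by TEAD factors), TGANTCA (the AP-1 sequence) and the CArG box, which is bound by serum response factor. The *Yap1*, *Wwtr1*, *Tead1* and *Amotl2* stretches are shown for the TEAD word, that of *Tead3* for the largest difference between antibodies (a window of 273 intron and 27 coding exon bases) and that of *Ankrd1* as the only region shared by all 6 lists around that gene.
*Yap1* promoter, chr9:8004597-8004829, minus strand, 233 bases: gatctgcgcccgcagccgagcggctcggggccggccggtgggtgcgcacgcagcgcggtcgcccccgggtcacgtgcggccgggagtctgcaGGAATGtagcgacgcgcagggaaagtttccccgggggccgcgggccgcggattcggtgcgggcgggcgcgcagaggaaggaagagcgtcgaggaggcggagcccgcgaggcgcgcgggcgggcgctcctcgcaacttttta
*Wwtr1* promoter, chr3:57576092-57576391, minus strand, 300 bases: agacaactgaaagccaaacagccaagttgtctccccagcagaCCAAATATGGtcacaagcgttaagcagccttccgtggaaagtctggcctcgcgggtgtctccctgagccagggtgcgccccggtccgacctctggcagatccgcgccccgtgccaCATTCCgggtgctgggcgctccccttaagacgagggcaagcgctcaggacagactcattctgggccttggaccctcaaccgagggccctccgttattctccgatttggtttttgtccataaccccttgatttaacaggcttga
*Wwtr1* intron, chr3:57470859-57470888, minus strand, 30 bases: acaaagggtttcCATTCCcagcttgtatgt
Upstream of *Tead1*, chr7:112663284-112663583, plus strand, 300 bases: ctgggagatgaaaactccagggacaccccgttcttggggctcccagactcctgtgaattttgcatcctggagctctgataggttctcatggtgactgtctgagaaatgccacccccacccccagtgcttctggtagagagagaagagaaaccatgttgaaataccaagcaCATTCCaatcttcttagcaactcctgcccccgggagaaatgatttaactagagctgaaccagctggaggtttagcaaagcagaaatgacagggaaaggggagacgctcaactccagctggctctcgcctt
*Amotl2* untranslated exon, chr9:102717727-102717756, plus strand, 30 bases: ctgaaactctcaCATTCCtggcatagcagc
*Tead3* intron, chr17:28341076-28341375, minus strand, 300 bases: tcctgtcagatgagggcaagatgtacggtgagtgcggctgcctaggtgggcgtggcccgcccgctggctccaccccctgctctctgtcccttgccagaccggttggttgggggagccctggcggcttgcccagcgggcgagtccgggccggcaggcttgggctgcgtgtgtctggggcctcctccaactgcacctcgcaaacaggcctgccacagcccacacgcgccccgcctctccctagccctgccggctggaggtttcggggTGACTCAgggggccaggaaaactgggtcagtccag
Upstream of *Ankrd1*, chr19:36129061-36129360, minus strand, 300 bases: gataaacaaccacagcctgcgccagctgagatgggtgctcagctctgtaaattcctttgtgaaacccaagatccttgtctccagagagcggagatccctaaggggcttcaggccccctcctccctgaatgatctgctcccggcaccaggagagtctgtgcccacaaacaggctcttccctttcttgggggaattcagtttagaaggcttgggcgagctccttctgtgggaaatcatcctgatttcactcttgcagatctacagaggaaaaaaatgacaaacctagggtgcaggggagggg

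The libraries held between 14284532 and 23992352 fragments, and each BRG1 library was shallower than each PBRM1 library. Between 31970 and 39467 peaks were listed per library. Pileup, the number of fragments that cover a summit, was expressed per 1000000 fragments of the library, and every level below is this normalised pileup. Merging peaks that shared at least 1 bp gave 82949 regions, of which 12828 had a peak in all 6 lists and are called six-list regions. No control library was given to the peak caller, so that cutting of open chromatin without regard to the antibody and cutting at the antibody's target cannot be told apart. Of 8 smooth muscle markers, 5 had a promoter peak in all 6 lists, although *Cnn1* (calponin) had one in none and *Myh11* (smooth muscle myosin heavy chain) in 1 list. None of 7 markers of oviduct epithelium had one in all 6 lists and 4 had none in any list, the 3 leukocyte markers were without a promoter peak in every list, and of 3 endothelial markers *Tek* had one in all 6 and *Cdh5* none. Of all 21755 protein-coding genes, 41.8% had a promoter peak in all 6 lists and 7468 genes had one in none.

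First, the distribution of peaks around the 8 genes was mapped. Their windows held 77 regions, 12 of which (15.6%) had a peak in all 6 lists and 33 (42.9%) in a single list, beside 15.5% and 47.0% of all regions in the series. Both shares were thus near those of the whole series. By position, 17 of the 77 regions were at a promoter of the gene itself, 6 at the start of a neighbouring gene and 54 distal. The 12 six-list regions comprised 4 at an own promoter, 3 at the start of a neighbour and 5 distal. At least 1 six-list region was present in the windows of 7 of the 8 genes, against 58.8% of protein-coding genes treated in the same way. At least 1 distal six-list region was present for *Wwtr1*, *Tead1*, *Tead3* and *Ankrd1*, which is 4 of 8, against 14.2% of all genes. This share rises with the length of a window, and the windows ranged from 48.1 kb for *Ankrd1* to 267 kb for *Tead1*.

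Counted per 100 kb, regions found in any list were denser around each of the 8 genes than the median gene, which had 4.84. The density ranged from 6.23 at *Ankrd1* to 10.7 at *Yap1*, which placed the 8 genes between the 61.2 and the 88.4 percentile of all genes. For six-list regions the picture differed. *Tead3* had 5.07 per 100 kb, at the 95.05 percentile, and *Amotl2* had 3.52. *Yap1* and *Tead1*, by contrast, had 0.888 and 0.748, below the median of 1.03. *Tead4* had none. The *Tead3* value counts regions at the starts of the neighbouring genes *Rpl10a* and *Fance*, besides 1 distal region. Of the 77 regions, 35 were listed with both antibodies in at least 1 library each. A region 63.4 kb into *Wwtr1* was listed in all 3 BRG1 libraries, at 1.01, 1.05 and 0.931, and in no PBRM1 library. No region in the 8 windows had the reverse pattern. The same counts were not made over all regions of the series. Among the promoters of all 21755 protein-coding genes, 164 had peaks in all 3 BRG1 lists and no PBRM1 list, and 23 had the reverse.

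**Figure D1:**
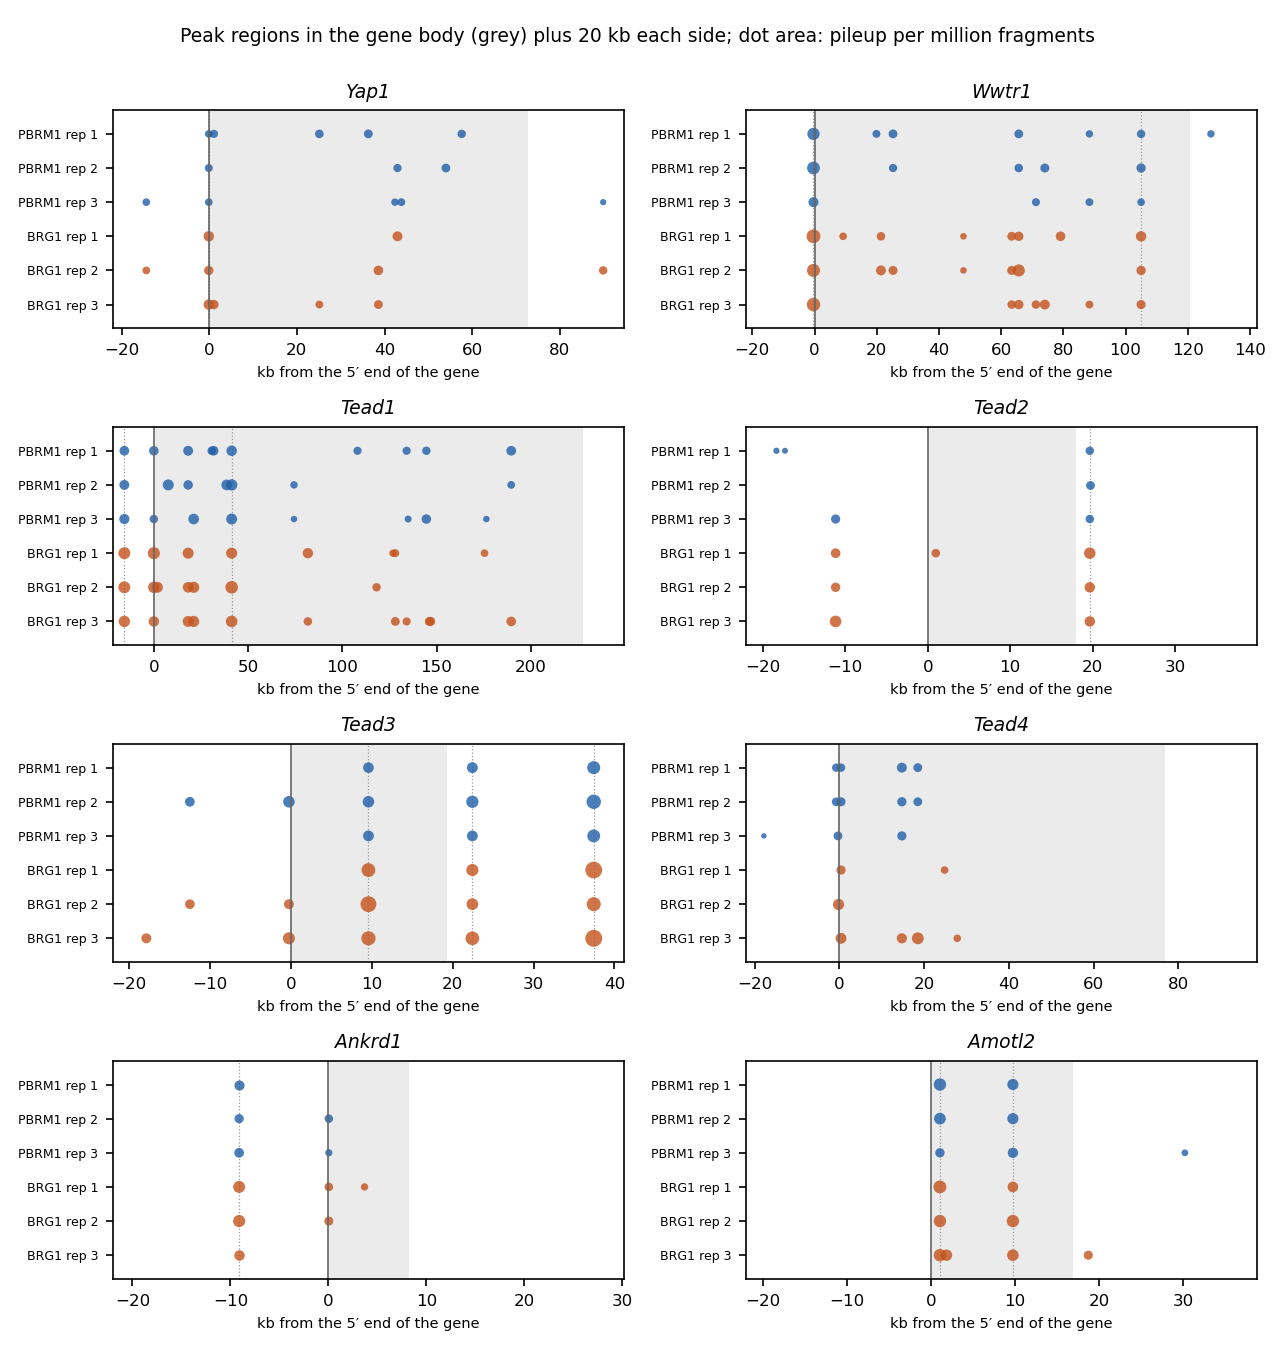
Peak regions around each gene, by distance in kb from the 5′ end in the direction of transcription (x axis) and by replicate list (y axis; PBRM1 blue, BRG1 orange). Dot area is proportional to normalised pileup, grey marks the gene body and dotted lines mark the 12 regions present in all 6 lists, 3 of them around *Tead3* and none around *Tead4*.

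The genes for the coactivators were both marked at their promoters in every list. At the *Wwtr1* promoter the highest pileup was 1.92, 2.10 and 1.29 in the PBRM1 libraries and 2.45, 2.17 and 2.33 in the BRG1 libraries. These peaks ranked within the top 3.31% to 12.2% of their lists by normalised pileup. All of them fell in a single region of chr3:57575557-57576978 that spans the 5′ end, with its median summit 0.3 kb before it (gene on chr3:57455649-57575910, minus strand). PBRM1 replicate 3 was the lowest of the 6, and the BRG1 libraries were all above the PBRM1 libraries. The latter was so in 56.8% of all six-list regions.

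At *Yap1* (chr9:7931999-8004596, minus strand) promoter peaks were present in all 6 lists too but were lower. In the region that covers the 5′ end, chr9:8004432-8005356, the levels were 0.758, 0.828 and 0.750 with PBRM1 and 1.38, 1.12 and 1.40 with BRG1. Every BRG1 library was above every PBRM1 library, as in 56.8% of all six-list regions. The peaks at *Yap1* promoters were ordinary for their lists, with between 29.0% and 63.5% of peaks at least as high. A further start annotated inside the gene carried a peak 38.6 kb from the 5′ end in BRG1 replicates 2 and 3, and in replicate 2 it was the highest of the promoter peaks, at 1.19. Among the 9092 genes with a promoter peak in all 6 lists, the mean promoter level of *Wwtr1* was at the 73.2 percentile and that of *Yap1* at the 10.4 percentile.

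*Wwtr1* had 12 distal regions in a window of 160 kb, and *Yap1* had 9 in a window of 113 kb. In the body of *Wwtr1*, 105.0 kb from the 5′ end in an intron (chr3:57470378-57471378), a six-list region had levels of 0.909, 1.10 and 0.750 with PBRM1 and 1.38, 1.12 and 1.06 with BRG1, which overlap. An intronic region 65.7 kb from the 5′ end was missed by 1 library only, at 1.01 and 0.938 in PBRM1 replicates 1 and 2 and at 1.13, 1.89 and 1.13 with BRG1. None of the 9 distal regions of *Yap1* was shared by all lists, and 5 of the 9 were in 1 list.

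Among the DNA-binding partners, support at the promoter differed from gene to gene. *Tead4* (chr6:128224288-128300823, minus strand) had a promoter peak in each list, at 0.909, 1.05 and 1.00 with PBRM1 and 1.07, 1.61 and 1.53 with BRG1. The summits, however, lay from 0.4 kb before to 0.9 kb after the 5′ end and fell into separate regions, none of which was common to all 6 lists. The *Tead1* promoter (chr7:112679318-112906807, plus strand) was missed by PBRM1 replicate 2, and the other libraries gave 1.16 and 0.917 with PBRM1 and 1.89, 1.68 and 1.40 with BRG1. *Tead3* (chr17:28331671-28350817, minus strand) had a promoter peak in 3 lists, at 1.71 in PBRM1 replicate 2 and at 1.26 and 1.86 in BRG1 replicates 2 and 3. *Tead2* (chr7:45215753-45233644, plus strand) had one in BRG1 replicate 1 alone, at 0.944, which is 15 fragments at the summit. The absence of a peak from a list means only that the threshold was not passed at this depth. In the lists called on pooled replicates each of the 8 genes had a promoter peak with both antibodies, but the share of all genes that did was not counted. The authors' pooled values at *Tead2* were 0.598 for PBRM1 and 0.752 for BRG1, the lowest of the 8 genes with each antibody.

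Away from the start, *Tead1* had a pair of six-list regions. The region 15.9 kb before its 5′ end was at chr7:112662541-112664073, in an intron of the neighbouring 2310014F06Rik. It gave 1.21, 1.27 and 1.33 with PBRM1 and 1.82, 1.82 and 1.66 with BRG1. All BRG1 values were the higher, as in 56.8% of all six-list regions. The intronic region 41.1 kb after the 5′ end (chr7:112720158-112721195) gave 1.41, 1.66 and 1.54 against 1.57, 2.03 and 1.73, which overlap. Another *Tead1* region, 18 kb into the gene, was missed by PBRM1 replicate 3 only, at 1.26 and 1.16 with PBRM1 and 1.57, 1.47 and 1.53 with BRG1.

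In the replicate lists *Tead3* differed from *Yap1*, with a promoter peak in 3 lists and a site in every list inside the gene. In the pooled lists, however, the highest promoter peaks of *Yap1* had 0.662 with PBRM1 and 1.30 with BRG1. They lay in different places, at chr9:8003253-8003744 for PBRM1 and at chr9:8004428-8004922 for BRG1. At *Tead3* the values were 1.07 and 1.37. An intronic region 9.6 kb from the *Tead3* 5′ end (chr17:28340877-28341548) was listed at 1.47, 1.71 and 1.50 with PBRM1 and at 2.45, 3.22 and 2.59 with BRG1. Every BRG1 value was above every PBRM1 value there, as in 56.8% of all six-list regions. The other six-list regions in the *Tead3* window lay at the starts of *Rpl10a*, encoding a ribosomal protein, and *Fance*, encoding a subunit of the Fanconi anemia complex, 22.4 and 37.4 kb from the *Tead3* 5′ end. At the *Fance* start the levels were 2.17, 2.65 and 2.13 with PBRM1 and 3.59, 2.52 and 3.66 with BRG1, the highest mean of the 12 regions with each antibody. Likewise, the one six-list region in the *Tead2* window (chr7:45234820-45235761) was at an annotated start of *Cd37*, encoding a tetraspanin of leukocytes. The 300 bases around its median summit were all exonic, and 204 of them were coding. Its levels were 0.909, 0.993 and 0.917 with PBRM1 and 1.70, 1.40 and 1.40 with BRG1. In the *Tead4* window the best shared distal region, 14.8 kb into the gene, had 1.26, 1.10 and 1.08 with PBRM1 and 1.33 in BRG1 replicate 3, with no peak in the other two.

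The target genes differed at their promoters. *Amotl2* (chr9:102716672-102733418, plus strand) had promoter peaks in all 6 lists. The region 1.0 kb after its 5′ end, overlapping an untranslated exon (chr9:102717209-102718178), had 1.97, 1.77 and 1.13 with PBRM1 and 2.14, 1.96 and 2.00 with BRG1. Only BRG1 replicate 2 fell below the highest PBRM1 library. A second region, 9.7 kb into *Amotl2* (chr9:102725903-102726596), was intronic and counted as promoter because an internal start lies within 2 kb. Its levels were 1.62, 1.60 and 1.38 with PBRM1 and 1.45, 1.96 and 1.73 with BRG1, which overlap. In mean promoter level over the 6 lists *Amotl2*, at 1.87, was next to *Wwtr1*, at 2.04, and their ranges overlapped with PBRM1 (1.38 to 1.97 and 1.29 to 2.10) but not with BRG1 (1.96 to 2.14 and 2.17 to 2.45). *Tead4* at 1.19 and *Yap1* at 1.07 followed, with overlapping ranges for BRG1 but not for PBRM1.

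At *Ankrd1* (chr19:36111961-36120099, minus strand) the promoter was called in 2 lists of each antibody, at 0.938 and 0.667 in PBRM1 replicates 2 and 3 and at 0.944 and 1.05 in BRG1 replicates 1 and 2. Those peaks rested on 15 to 17 fragments at the summit. The strongest site of *Ankrd1* was instead intergenic, 9.1 kb before the 5′ end (chr19:36128918-36129949). It was listed at 1.31, 1.10 and 1.21 with PBRM1 and at 1.82, 1.89 and 1.40 with BRG1. The BRG1 values were all above the PBRM1 values, as in 56.8% of all six-list regions. At *Ankrd1*, *Tead3* and *Tead1* a distal site was thus in every replicate list and the promoter was not. How many of all genes showed this was not counted. In the pooled lists the promoters of these genes were called with both antibodies.

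**Figure D2:**
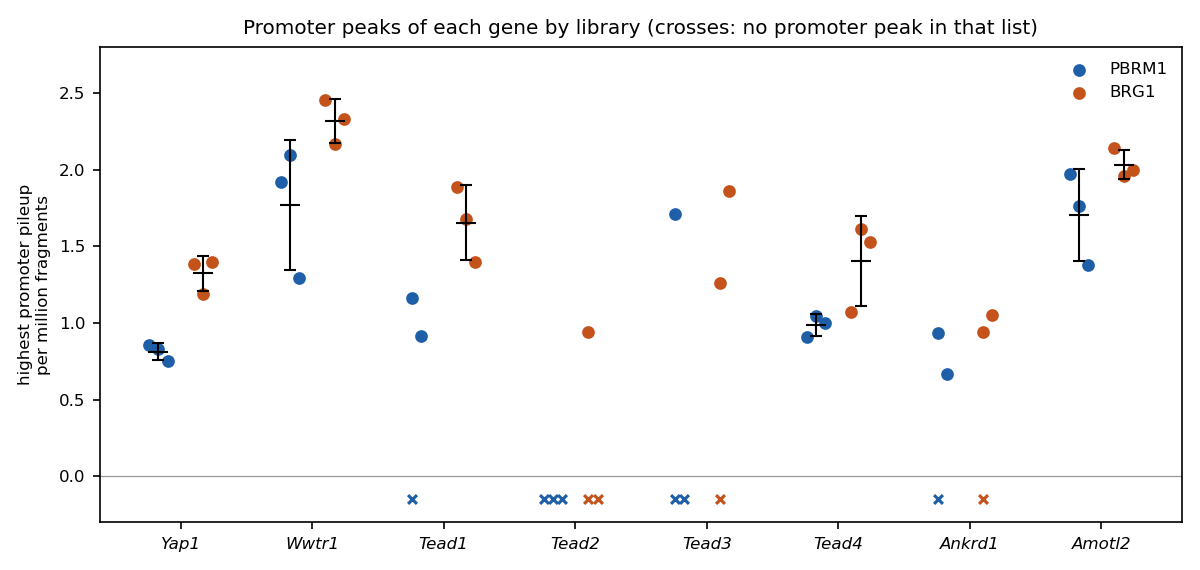
Highest promoter pileup per 1000000 fragments (y axis) in each replicate library for the 8 genes (x axis), with PBRM1 in blue and BRG1 in orange. Bars give the mean ± SD where all 3 libraries of an antibody had a promoter peak, and crosses below 0 mark libraries without one, as in 5 of 6 libraries for *Tead2*.

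In all, 4 of the 8 genes (*Yap1*, *Wwtr1*, *Tead4* and *Amotl2*) had a promoter peak in all 6 lists, against 41.8% of protein-coding genes. The same 4 genes had one in all 3 PBRM1 lists, against 44.2%, and with *Tead1* 5 of 8 had one in all 3 BRG1 lists, against 50.0%. These shares were near the background. With only peaks of −log10 q of at least 5 counted, *Wwtr1* and *Amotl2* remained in all 6 lists and *Yap1* and *Tead4* did not. Among the 9092 genes with promoter peaks in all lists, the closest to *Wwtr1* in its 6 log2 levels was *Cebpzos*, at a Euclidean distance of 0.152. The closest to *Yap1* was *Gtf3a* (0.160), to *Tead4* *Cenps* (0.189) and to *Amotl2* *Dph5* (0.229).

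The rest of the pathway was viewed in the same way. Of 28 other Hippo pathway genes, 14 (50.0%) had a promoter peak in all 6 lists, 15 in all PBRM1 lists and 22 in all BRG1 lists. The shares of all protein-coding genes were 41.8%, 44.2% and 50.0%. The highest mean promoter levels over the 6 lists were those of *Taok2* (3.68), encoding a kinase that acts upstream in the pathway, *Nf2* (2.72), encoding the scaffold merlin, and *Rassf1* (2.53), encoding an adaptor of the kinases. *Vgll1*, encoding a cofactor of TEAD proteins, and *Dchs1*, encoding a cadherin, had a promoter peak in no list, as did 7468 of all 21755 protein-coding genes. Of 20 other YAP and TAZ target genes, 8 (40%) had a promoter peak in all 6 lists, 9 in all PBRM1 lists and 11 in all BRG1 lists, beside the same shares of all genes. *Fjx1* was the target with none, and *Dock5*, encoding a guanine nucleotide exchange factor, had peaks with BRG1 only, at 1.20, 0.980 and 0.998. Over all 21755 protein-coding genes, 164 had a promoter peak in all BRG1 lists and no PBRM1 list.

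Next, the sequence at the 12 six-list regions was searched on both strands, in the 300 bases around the median summit. GGAATG was found in 5 of 12 regions, against 16.7% of all six-list regions. Split by kind, these were 3 of 7 promoter regions, against 11.3%, and 2 of 5 distal regions, against 26.8%. The 5 were the promoters of *Yap1* and *Wwtr1*, the *Wwtr1* intron, the site upstream of *Tead1* and the untranslated exon of *Amotl2*, printed above. In 4 of them, all but the *Wwtr1* intron, the word extended to GGAATGT, which contains GGAATG. It was present in 5.44% of all six-list regions (2.78% at promoters and 10.4% at distal sites). The AP-1 word TGANTCA was in 1 of 12, the *Tead3* intron, against 17.3%. The CArG box was in 2 of 12, the *Wwtr1* promoter and the *Rpl10a* start, against 1.75% (1.41% at promoters and 2.36% at distal sites). The GC box word GGGCGG was in 6 of 12, against 47.6%. By kind it was in 4 of 7 promoter regions, against 65.9%, and in 2 of 5 distal regions, against 13.4%. None of these words was found around the summit upstream of *Ankrd1*.

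The distance from the TEAD word to the summit depended on the library. At the *Wwtr1* promoter the word lay 26, 26, 38, 22 and 4 bp from the summits of PBRM1 replicates 1 and 2 and BRG1 replicates 1, 2 and 3, and 324 bp from that of PBRM1 replicate 3. Thus it was within 50 bp of the summit in 5 of 6 lists. At the *Yap1* promoter the distance was 6, 172 and 398 bp in the PBRM1 lists and 128, 76 and 114 bp in the BRG1 lists, and at *Amotl2* it was 86, 84 and 136 bp and 160, 38 and 122 bp. For both genes 1 list had the summit within 50 bp. Upstream of *Tead1* the distance was never below 100 bp, and in the *Wwtr1* intron never below 88 bp. With the 300 bases centred on the summit of each list in turn, a choice made after the data were seen, the word was in 2 to 5 of the 12 regions (4, 3 and 2 with the PBRM1 lists and 4, 4 and 5 with the BRG1 lists), against 15.6% to 16.9% of all six-list regions. In PBRM1 replicate 3 the members' count was thus at the background. A match is a stretch of letters and shows no binding of a TEAD protein.

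**Figure D3:**
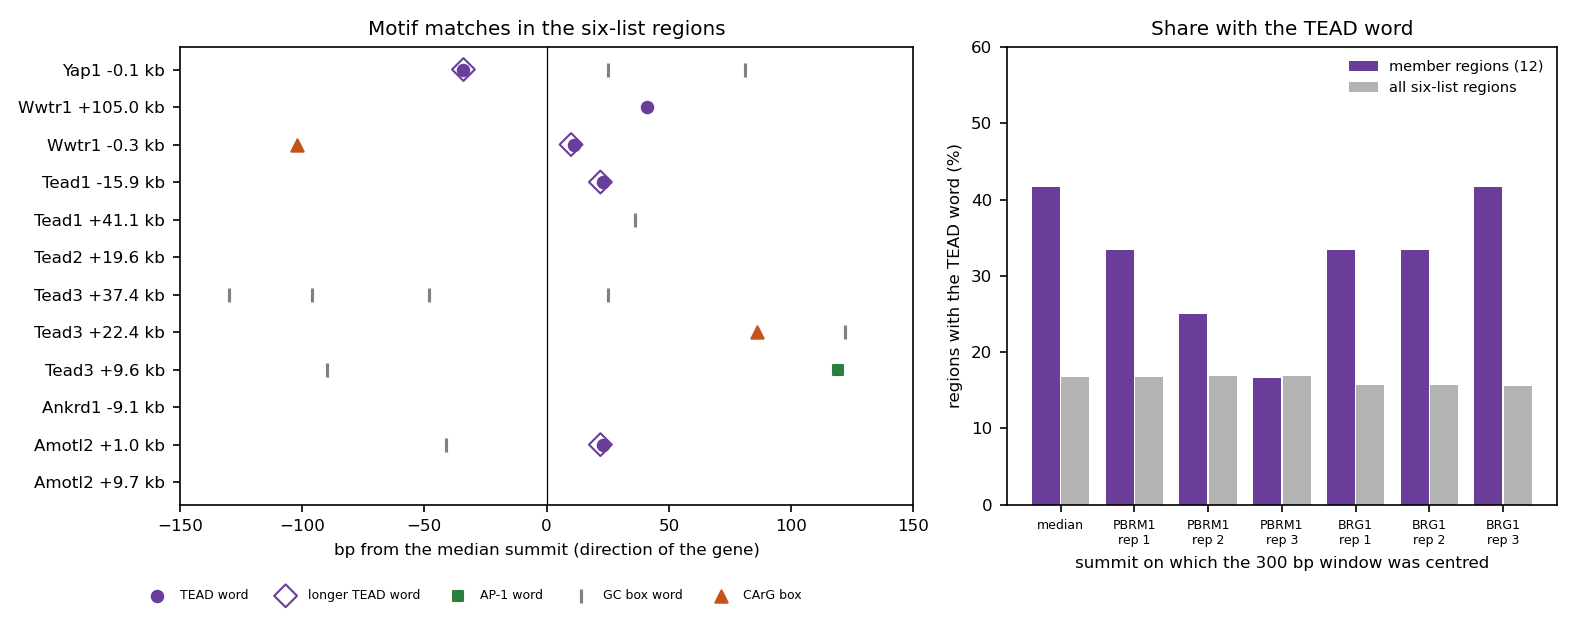
Left, position of motif matches in bp from the median summit (x axis) for the 12 six-list regions (rows, named by gene and by kb from its 5′ end), with the TEAD word in 5 of them. Right, percentage of the 12 regions (purple) and of all 12828 six-list regions (grey) with the TEAD word when the 300 bp window is centred on the median summit or on the summit of each list, where the 12 regions range from 2 to 5 matches.

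Finally, the antibodies were compared at these 12 regions with limma, fitted to log2 normalised pileup over all 12828 six-list regions with Benjamini-Hochberg adjustment. Over the whole set 53.0% of regions were called higher with BRG1 and 0.413% higher with PBRM1, and the median difference was 0.49 on the log2 scale (0.59 at promoters and 0.27 at distal sites). The whole set was thus shifted towards BRG1, and the value of a single region is to be read against this shift. Antibody and library depth cannot be told apart in it, since each BRG1 library was the shallower.

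Of the 12 regions, 6 were called, all higher with BRG1, which is near the background. In 6 of 12 every BRG1 library was above every PBRM1 library, against 56.8% of all six-list regions. The largest difference was at the *Tead3* intron, with means of 1.56 ± 0.13 for PBRM1 and 2.76 ± 0.41 for BRG1 (SD, n = 3 each) and a log2 difference of 0.82 ± 0.18 (SE, limma adjusted p = 0.00022). This was 0.33 above the median of all regions, at the 87.9 percentile. The *Yap1* promoter followed, with 0.779 ± 0.043 and 1.300 ± 0.16 (SD, n = 3 each) and a log2 difference of 0.73 ± 0.22 (SE, limma adjusted p = 0.0043). At the *Cd37* start in the *Tead2* window the log2 difference was 0.67 ± 0.21 (SE, limma adjusted p = 0.0068).

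The remaining called regions lay close to the median shift. The log2 difference was 0.49 ± 0.20 upstream of *Ankrd1*, 0.48 ± 0.17 at the *Fance* start and 0.48 ± 0.20 upstream of *Tead1* (SE; limma adjusted p = 0.037, 0.016 and 0.037). The *Wwtr1* promoter, at 0.42 ± 0.19 (SE), did not pass the threshold (limma adjusted p = 0.052), nor did the untranslated exon of *Amotl2*, at 0.37 ± 0.19 (SE, limma adjusted p = 0.10). Leaving out 1 library at a time changed several of these calls. The call upstream of *Tead1* was lost without any 1 library other than PBRM1 replicate 3 (limma adjusted p = 0.055 to 0.097). The call upstream of *Ankrd1* was lost without PBRM1 replicate 2 or 3 or BRG1 replicate 1 or 2 (limma adjusted p = 0.061 to 0.13), and that at the *Fance* start without BRG1 replicate 1 or 3 (limma adjusted p = 0.096 and 0.11). Conversely, the *Wwtr1* promoter was called without PBRM1 replicate 1 or 2 (limma adjusted p = 0.044 and 0.024) and the untranslated exon of *Amotl2* without PBRM1 replicate 1 (limma adjusted p = 0.038). The calls at the *Tead3* intron, the *Yap1* promoter and the *Cd37* start were kept in each of these fits. With fold enrichment in place of pileup all 3 of these calls were lost, at log2 differences of 0.34, 0.38 and 0.0040 (limma adjusted p = 0.17, 0.11 and 0.99). The smallest values were 0.20 ± 0.19 in the *Tead1* intron and 0.15 ± 0.20 at the internal *Amotl2* start (SE; limma adjusted p = 0.36 and 0.50). When each library was centred on its own median, 4.69% of all six-list regions were called in either direction and none of the 12 member regions was (limma; smallest adjusted p = 0.198, at the *Tead3* intron, with a centred difference of 0.35). The values of 6 of the 12 then lay below 0.

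The promoter regions of the other pathway genes were compared in the same fit. Of 12 Hippo pathway genes whose promoter had a six-list region, 7 were called higher with BRG1 and none higher with PBRM1, against 53.0% and 0.413% of all six-list regions. Those shares cover promoter and distal regions together, and the share called among promoter regions alone was not counted. The median log2 difference of the 12 Hippo pathway genes was 0.48, against 0.59 for all six-list regions at promoters. Of 8 target genes so covered, 7 were called higher with BRG1 and none higher with PBRM1, beside the same shares of all six-list regions. Their median was 0.63, near the 0.59 of all six-list regions at promoters. The largest log2 differences were those of *Mob1b*, encoding a kinase cofactor (0.93 ± 0.20), *Nuak2*, encoding a kinase (0.92 ± 0.20), *Stk3*, encoding the kinase MST2 (0.83 ± 0.21), *Taok3* (0.80 ± 0.19) and *Nt5e*, encoding the ectonucleotidase CD73 (0.80 ± 0.21; SE, n = 3 libraries per antibody, limma adjusted p from 9.9e-05 to 0.0015). After centring none of these 20 promoter regions was called.

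**Figure D4:**
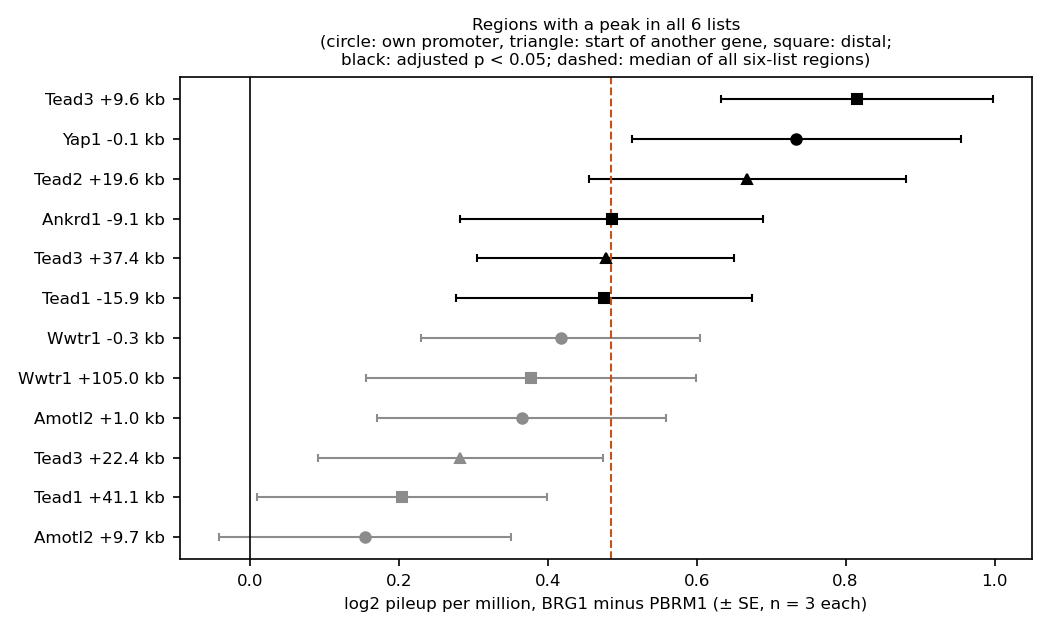
Log2 difference in pileup per 1000000 fragments, BRG1 minus PBRM1 ± SE (x axis, n = 3 libraries each), at the 12 six-list regions (y axis, named by gene and by kb from its 5′ end). Circles mark own promoters, triangles the starts of neighbouring genes and squares distal sites, black marks an adjusted p below 0.05, and the dashed line is the median of all six-list regions, 0.49, around which the members lie on both sides.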

How the data were processed

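Per the labels, the authors processed reads with cutadapt, Bowtie2 and MACS2 against GRCm38.p5. Per the file headers, MACS 2.2.7.1 called peaks from paired-end fragments with no control, all duplicates kept at that step, an effective genome size of 2300000000 bp, a q cutoff of 0.05 and a local background of 10 kb. The deposited pileup (signal at the summit) is not scaled, the deposited fold enrichment is its ratio to local background, and the deposited −log10 q is that of each peak.

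Pileup was expressed per 1000000 fragments of the header's total (14284532 to 23992352 per replicate library). A pileup of 15 has a 95% exact Poisson interval of 8.40 to 24.7 and one of 40 of 28.6 to 54.5, for counting error only. Peaks sharing at least 1 bp were merged with Python 3.11.15, pandas 2.3.3 and numpy 2.4.6 and annotated with GENCODE M21, and sequence was read with pysam 0.24.0 from RefSeq's GRCm38.p6. limma 3.58.1 in R 4.3.3 (empirical Bayes with a trend, adjusted p threshold 0.05) was fitted to all six-list regions. The fit was also run on simulated data. These held no shift of the whole set towards BRG1, so they could not check calls made under such a shift. Alternatives changed the scaling, measure, peak threshold, windows and libraries. The genes named were the 8 members and, of the other pathway genes, the 3 with the highest mean, those in no list or in all 3 lists of 1 antibody only, the 5 with the largest called difference and the gene most alike to each member with promoter peaks in all lists. Members and lists were chosen with earlier results of these data known.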

Additional observations from a re-analysis of the deposited data

How the results depend on the processing

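Over the whole set 6852 regions were called in the main fit. With each library centred on its median 602 were called (314 higher with BRG1 and 288 with PBRM1). With fold enrichment in place of pileup 1400 were called (1372 and 28). Each fit was counted separately, and how many regions were called in more than 1 fit was not counted. Of the 12 regions around the 8 genes, 6 were called, but 0 after centring and 0 with fold enrichment. After centring the log2 difference turned to -0.089 in the *Wwtr1* intron, -0.048 at the *Wwtr1* promoter, -0.26 in the *Tead1* intron, -0.18 at the *Rpl10a* start, -0.10 in the untranslated exon of *Amotl2* and -0.31 at its internal start. With fold enrichment it turned to -0.03 at the *Fance* start, -0.20 at the *Rpl10a* start and -0.16 at the internal *Amotl2* start. The cause was not tested. Leaving out 1 library at a time gave 5027 to 6460 called regions over the whole set and 3 to 7 of the 12, and the 3 were reached without BRG1 replicate 1.

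Promoter peaks in all lists were found for 2 genes at −log10 q of at least 5, and for 4 to 5 genes with 1 library left out. Six-list regions numbered 5 in gene bodies alone, 22 with 50 kb on each side, 6 with all summits within 250 bp of their median, 7 at −log10 q of at least 5 and 12 to 14 with 1 library left out. The TEAD word was in 3 and 2 regions around the summits of PBRM1 replicates 2 and 3 and in 8 of 12 whole merged regions, against 39.8% of all six-list regions. Same-numbered replicates did not deviate together (correlations 6.2e-05, 0.0035 and -0.029), and with the replicate block 6638 regions were called over the whole set and 6 of the 12. The 12 regions rest on pileups of 15 to 57 fragments per library, and some of the other regions on fewer.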
